A study of Homo sapiens with 18 samples.

Results

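Long intergenic noncoding RNAs (lincRNAs) that were well covered by reads were examined in cells of HCT116, a line established from a human colorectal carcinoma. The lincRNAs were chosen by their raw counts: the deposited annotation typed the gene as lincRNA and the counts summed to at least 1800 over all 18 libraries, that is, to a mean of 100 per library. The manipulated RNA itself (RP4-710M16.2), GAS5, ZFAS1, the SNHG genes and genes on chromosomes X and Y were left out. This gave 72 lincRNAs among 3046 genes of that type and 31004 genes in all, and 5 further lincRNAs over the threshold were left out by name or chromosome. The threshold was close to LINC00460 (1843 counts in all), AC016831.7 (1912) and RP11-196G11.6 (1918) on the inside and to RP11-96H19.1 (1776), CTD-3252C9.4 (1661) and BLACAT1 (1658) on the outside. Because summed counts chose the genes, a lincRNA that is high in few groups can enter through them. In each of the 6 groups a lincRNA would need 300 counts to carry its share of the threshold, 54 of the 72 did so in all 6 groups, and the other 18 did not, among them LINC00482 and RP11-67L2.2 in 2 groups and LINC00857 in 1 group. All 72 passed the filter on low counts in each comparison.

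The libraries came from HCT116 cells that stably carried CRLM1, a long noncoding RNA listed in the tables as RP4-710M16.2, or its antisense sequence as a control, or an empty vector (backgrounds CRLM1, Antisense and Ctrl). Each background received either an hnRNPK overexpression construct (hnRNPK) or its negative control (NC), which gave Ctrl_NC, Ctrl_hnRNPK, CRLM1_NC, CRLM1_hnRNPK, Antisense_NC and Antisense_hnRNPK with 3 replicates each. Per the study's methods CRLM1 was delivered with a lentiviral vector under puromycin selection, and whether a line was 1 clone or a pool is not given in the sources used here. Nothing in the labels says that replicates were separate cultures, so that p-values measure the spread between these libraries only. Total counts ran from 19732681 to 27039520 per library and genes with a count from 19555 to 22370. Of the epithelial markers listed, 4 of 6 were above 1 FPKM in every library, while VIL1 (median 0.025) and CDX2 (0.45 to 3.27) were not. Leukocyte, endothelial and hepatocyte markers summed to at most 0.27, 0.06 and 0.11 FPKM. Fibroblast markers summed to at most 3.91 FPKM, with COL1A1 at 1.66 to 3.9 FPKM. RP4-710M16.2 was at 599 ± 10.5 CPM (mean ± SD, n = 3) in CRLM1_NC, at 49.8 ± 0.307 CPM in Antisense_NC and at 0 counts in the Ctrl libraries. HNRNPK, the gene of hnRNPK, was at 617, 644 and 491 CPM in Ctrl_hnRNPK replicates 1 to 3 against 463 to 480 CPM in Ctrl_NC. It was at 671, 713 and 571 CPM in CRLM1_hnRNPK against 454 to 461 CPM in CRLM1_NC, and at 540, 532 and 583 CPM in Antisense_hnRNPK against 424 to 434 CPM in Antisense_NC, so that replicate 3 was the lowest of its hnRNPK group in the Ctrl and CRLM1 backgrounds and the highest in the Antisense background.

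LincRNAs are transcribed from their own promoters between or beside protein-coding genes, are usually spliced and polyadenylated, and include RNAs that build nuclear bodies, sequester proteins or host microRNAs. NEAT1 is the scaffold of paraspeckles and MALAT1 accumulates in nuclear speckles, and neither is exported to the cytoplasm. NORAD, listed as LINC00657, is a cytoplasmic RNA that binds Pumilio proteins, which repress mRNAs. Many lincRNAs are made from a promoter shared with a protein-coding gene on the other strand, and such short-lived transcripts are removed by the nuclear exosome. hnRNPK is a KH-domain protein that binds C-rich RNA and is itself found in paraspeckles.

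The Pumilio motif is shown first because it is the sequence by which LINC00657 acts. The motif TGTANATA, searched on the transcribed strand, stood 15 times in the 5401 bases of LINC00657 (ENSG00000260032.1, chr20:36045618-36051018, minus strand, build GRCh38, Gencode version 44, a single exon), as TGTATATA 10 times, TGTAAATA 4 times and TGTACATA once. That is 2.78 per 1000 bases, against 0.126 over all tested transcripts pooled and 0.113 over the other lincRNAs pooled, and 28.1% of 15061 tested transcripts held the motif at all. Of the other 69 lincRNAs with a transcript, 11 held it, NEAT1 with 6 copies the most. Only 3 tested transcripts, LINC00657 included, held 15 or more. The windows below show the 3 spellings, with the motif in capitals. Sites 1 and 4 are both TGTATATA, and the windows of sites 4 and 5 overlap.
LINC00657 site 1, chr20:36050185-36050208, minus strand: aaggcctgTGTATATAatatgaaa
LINC00657 site 3, chr20:36049705-36049728, minus strand: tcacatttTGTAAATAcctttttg
LINC00657 site 4, chr20:36049504-36049527, minus strand: cttatctgTGTATATAgtgtacat
LINC00657 site 5, chr20:36049495-36049518, minus strand: gtatatagTGTACATAaaggacag

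The lincRNAs that host microRNAs are shown by the mature RNA inside them, since 2 of them carry the same one. RefSeq (GRCh38.p14) gave mature sequences for 5 hosts. MIR4435-2HG and LINC00152 (CYTOR) are paralogs on chromosome 2 and hold identical copies of miR-4435, so that reads of these genes can be split or dropped by unique mapping. Capitals mark the seed, bases 2 to 8.
hsa-miR-4435, in MIR4435-2HG and in LINC00152: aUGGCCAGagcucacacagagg
hsa-miR-210-3p, in MIR210HG: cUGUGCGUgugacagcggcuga
hsa-miR-378g, in LINC01057: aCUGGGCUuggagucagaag
hsa-miR-570-3p, in LINC00969: cGAAAACAgcaauuaccuuugc

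Promoters are shown for 3 lincRNAs that were lower in Antisense_NC, of which PAXIP1-AS1 and RP11-111M22.3 start back to back with a protein-coding gene and LINC00482 does not. Each window runs from 250 bases before to 50 after the RefSeq start (GRCh38.p14) and the 50 bases after the start are in capitals. The PAXIP1-AS1 window holds 38 CG pairs, that of RP11-111M22.3 (EMSY-DT) 22 and that of LINC00482 14, against a median of 14 in all 27305 promoters and of 14 in the 32 lincRNAs with an entry. The starts of RP11-111M22.3 and of its neighbour C11orf30 (EMSY) lie 338 bases apart in RefSeq, and their windows share 163 bases. The ATF4 response motif TGATGNAA, searched on both strands, was in 0 of these 32 promoters and in 3.67% of all promoters.
PAXIP1-AS1, chr7:155003183-155003482, plus strand: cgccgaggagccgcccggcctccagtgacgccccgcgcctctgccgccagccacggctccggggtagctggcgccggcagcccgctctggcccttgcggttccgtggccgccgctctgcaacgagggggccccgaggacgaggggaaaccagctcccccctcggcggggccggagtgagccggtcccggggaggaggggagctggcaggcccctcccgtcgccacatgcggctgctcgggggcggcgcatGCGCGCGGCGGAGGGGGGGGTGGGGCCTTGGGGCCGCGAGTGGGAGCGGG
RP11-111M22.3, chr11:76444631-76444930, minus strand: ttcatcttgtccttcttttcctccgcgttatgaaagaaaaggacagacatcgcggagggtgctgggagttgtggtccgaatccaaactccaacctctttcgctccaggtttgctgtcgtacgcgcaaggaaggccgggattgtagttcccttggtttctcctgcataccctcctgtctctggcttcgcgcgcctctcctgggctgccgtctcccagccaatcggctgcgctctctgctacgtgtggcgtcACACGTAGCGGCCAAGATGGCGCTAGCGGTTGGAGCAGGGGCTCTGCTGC
LINC00482, chr17:81309199-81309498, minus strand: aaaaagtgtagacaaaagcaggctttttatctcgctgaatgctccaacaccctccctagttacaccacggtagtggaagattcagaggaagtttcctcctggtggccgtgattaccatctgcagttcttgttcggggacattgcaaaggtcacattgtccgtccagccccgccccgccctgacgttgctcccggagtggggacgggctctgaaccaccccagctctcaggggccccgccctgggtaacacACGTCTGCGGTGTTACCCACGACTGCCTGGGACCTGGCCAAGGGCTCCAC

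The lincRNAs took a small share of the reads, and a few of them held most of it. Together they made up between 0.155% and 0.275% of the counts of a library. RP11-54H7.4, LINC00657, MALAT1 and NEAT1 held between 45.5% and 63.8% of that share. Per length, in the authors' FPKM, their mean levels over all libraries ran from 0.493 to 71.4 with a median of 3.42. Mean FPKM was under 1 for 7 of the 72 and at 10 or more for 10. The highest was RP11-54H7.4 (71.4 FPKM, range 27.9 to 114), a spliced RNA on chromosome 13 (ENSG00000275216.1, chr13:109269634-109278512, plus strand, LINC03061 in Gencode version 44) whose function is not described here. LINC00657 followed at 49.8 FPKM (35.3 to 75.6), RP11-297P16.4 at 32.6 FPKM and RP11-256I9.2 at 18.4 FPKM. PVT1, a growth-linked RNA beside MYC, was at 18.3 FPKM, AC005256.1 at 16.7 FPKM, FLJ20021 at 15.9 FPKM and MALAT1 at 15.1 FPKM. CTB-193M12.5 (12.0 FPKM) and CH507-513H4.6 (10.6 FPKM) completed the 10, and the latter has a near-identical copy, CH507-513H4.3, so that its level is uncertain. Neighbours in this order that lie within each other's range over the libraries, such as RP11-256I9.2 and PVT1, were not told apart.

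Without the hnRNPK construct, lincRNAs were more often lower than higher in the Antisense background. Levels from here on are CPM, that is, counts scaled to a common library size with TMM factors over all 18 libraries, and differences are log2 fold changes with their SE from edgeR's quasi-likelihood test. Genes with a Benjamini-Hochberg adjusted p of 0.05 or less over all genes tested are said to have passed, at any fold, and those that in addition moved 2-fold or more either way are said to be called. Antisense_NC against Ctrl_NC called 16 of the 72, or 22.2%, against 14.1% of all 14389 genes tested. Of these 1 rose and 15 fell. Of the 15 that fell, 8 are among the 18 lincRNAs that did not carry their share of the count threshold in every group, so that their high groups helped to bring them in. With any fold, 40 of the 72 fell (55.6%, against 32.2% of all genes), 9 rose (12.5%, against 34.4%) and 23 did not pass. Among the 54 lincRNAs that reached the share in all 6 groups 29 fell and 7 rose, with 7 called lower and 1 called higher, though this cut leaves out lincRNAs for being low in a group. The median difference was -0.32 over the lincRNAs and 0.00 over all genes. In the authors' FPKM the median of all genes was shifted by 0.18 on the log2(FPKM + 0.1) scale, the median of the lincRNAs was 0.26 below it, and limma counted 27 lower and 15 higher. Mitochondrial genes took 6.91% ± 0.266 of the counts in Antisense_NC and 4.13% ± 0.0996 in Ctrl_NC (SD, n = 3), and the part of this in the differences was not tested.

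NEAT1 and MALAT1, both on chromosome 11, were lower in CRLM1_NC than in Ctrl_NC and lower again in Antisense_NC. NEAT1 (ENSG00000245532.5, chr11:65422774-65445540, plus strand) was at 211, 198 and 187 CPM in Ctrl_NC, at 135, 133 and 134 CPM in CRLM1_NC and at 84.2, 55.3 and 53.3 CPM in Antisense_NC. The groups did not overlap, and Antisense_NC replicate 1 lay above its 2 fellows. NEAT1 fell by 1.67 ± 0.21 in Antisense_NC (adjusted p = 0.0021) and by 0.59 ± 0.04 in CRLM1_NC (adjusted p = 4.9e-15). MALAT1 (ENSG00000251562.7, chr11:65497640-65508073, plus strand) was at 162, 149 and 154 CPM in Ctrl_NC, at 132, 116 and 115 CPM in CRLM1_NC and at 84.2, 75.4 and 64.5 CPM in Antisense_NC. The 3 groups again did not overlap. MALAT1 fell by 1.10 ± 0.07 in Antisense_NC (adjusted p = 1.0e-09) and by 0.37 ± 0.04 in CRLM1_NC (adjusted p = 1.4e-08). Fitted with all 18 libraries, which share 1 estimate of the spread, the 2 differences of CRLM1_NC no longer passed (NEAT1 adjusted p = 0.53, MALAT1 adjusted p = 0.77). The sources used here do not say whether the libraries were made from polyadenylated RNA or after removal of ribosomal RNA, and MALAT1 and the long form of NEAT1 carry no poly(A) tail. TALAM1, an RNA of the other strand, overlaps MALAT1, and counting by strand is not stated, so that these cannot be told apart.

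**Figure D1:**
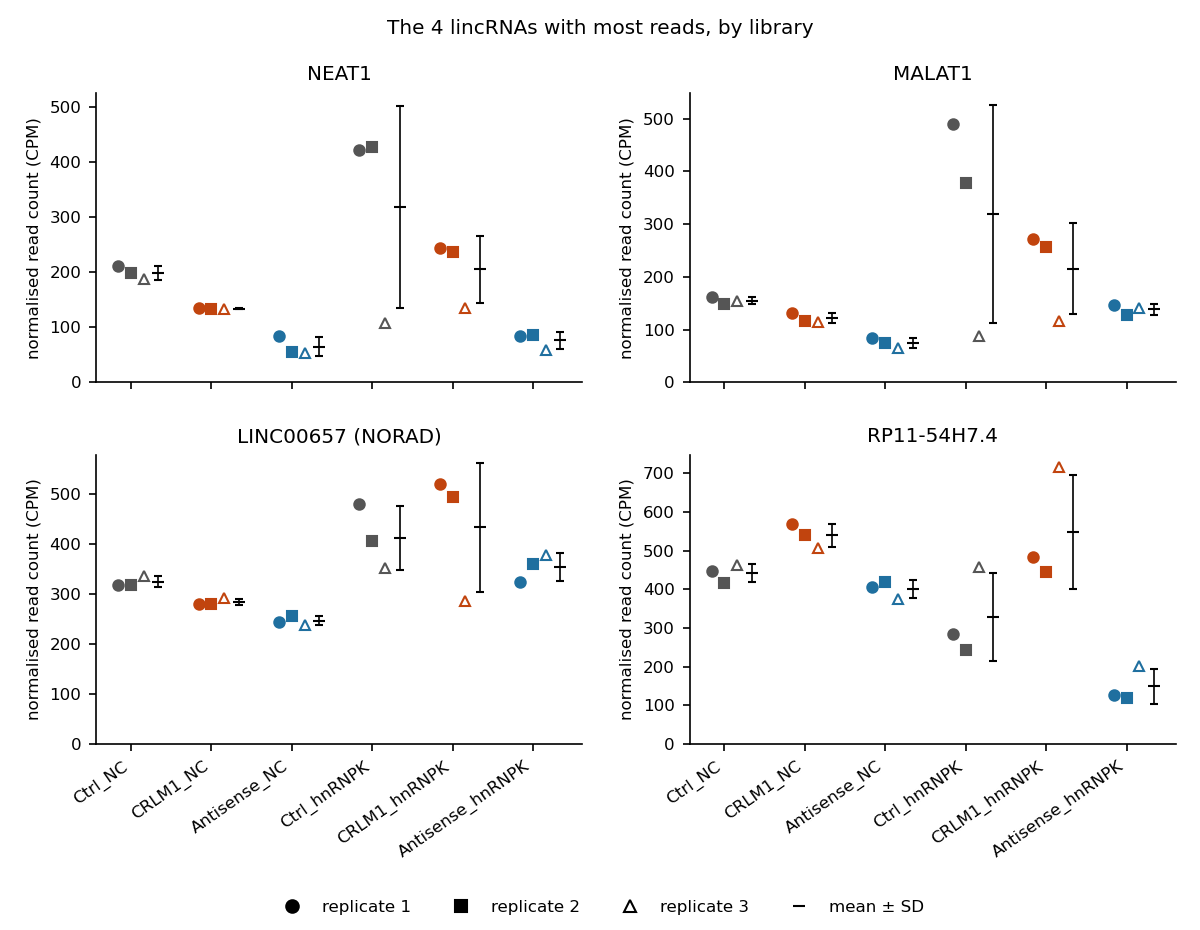
Normalised read count (CPM, vertical axis from 0) of NEAT1, MALAT1, LINC00657 and RP11-54H7.4 in each of the 18 libraries. Circles, squares and open triangles are replicates 1, 2 and 3 of the group named on the horizontal axis and bars are mean ± SD. In the Ctrl_hnRNPK and CRLM1_hnRNPK groups replicate 3 stands apart from replicates 1 and 2, NEAT1 at 108 CPM against 423 and 428 CPM in Ctrl_hnRNPK.

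LINC00657, the NORAD RNA, showed the same order with small steps. It was at 317, 319 and 336 CPM in Ctrl_NC, at 280, 280 and 292 CPM in CRLM1_NC and at 243, 256 and 238 CPM in Antisense_NC, with no overlap between groups. It fell by 0.45 ± 0.04 in Antisense_NC (adjusted p = 2.3e-13) and by 0.21 ± 0.03 in CRLM1_NC (adjusted p = 3.2e-06). Fitted with all 18 libraries, neither passed (adjusted p = 0.083 and 0.72). Of its protein partners, PUM2 rose by 0.60 ± 0.06 and RBMX by 0.31 ± 0.07 in Antisense_NC, while KHDRBS1 was at 0.04 ± 0.04 and did not pass.

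The largest fall was that of LINC00482, an RNA on chromosome 17 (ENSG00000185168.5, chr17:81303771-81309278, minus strand). It reached its share of the count threshold only in Ctrl_NC and Ctrl_hnRNPK (638 and 792 counts, against 134 in Antisense_NC and 225 in CRLM1_NC), so that a lower level in the other groups was favoured by how it was chosen. It was at 9.20, 9.72 and 10.2 CPM in Ctrl_NC, at 2.74, 3.58 and 4.33 CPM in CRLM1_NC and at 1.77, 1.98 and 2.35 CPM in Antisense_NC. No group overlapped another. It fell by 2.31 ± 0.17 in Antisense_NC (adjusted p = 1.2e-14) and by 1.47 ± 0.16 in CRLM1_NC (adjusted p = 2.1e-09), and CRLM1_NC was above Antisense_NC by 0.84 ± 0.23 (adjusted p = 0.0023). Its nearest protein-coding gene, SLC38A10, 8224 bases away on the same strand, was at -0.16 ± 0.07 in Antisense_NC and did not pass. AC058791.1 was at 6.11, 7.0 and 5.93 CPM in Ctrl_NC, at 3.68, 2.90 and 3.01 CPM in CRLM1_NC and at 2.80, 3.12 and 1.33 CPM in Antisense_NC. Both manipulated groups were below Ctrl_NC in every library and overlapped each other. It fell by 1.42 ± 0.20 in Antisense_NC and by 1.00 ± 0.18 in CRLM1_NC. AC058791.1 reached its share of the count threshold in Ctrl_NC (419 counts) but not in CRLM1_NC (205) or Antisense_NC (165). These falls too were favoured by how it was chosen. Its identifier is absent from Gencode version 44, and no position is given.

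Other called lincRNAs had the same direction in Antisense_NC. LINC00460, which is linked to growth and invasion of tumour cells, was at 4.46, 6.48 and 5.88 CPM in Ctrl_NC, at 4.94, 5.17 and 3.98 CPM in CRLM1_NC and at 2.41, 2.45 and 2.00 CPM in Antisense_NC. It fell by 1.35 ± 0.19 in Antisense_NC (adjusted p = 1.6e-07), while CRLM1_NC overlapped Ctrl_NC at -0.28 ± 0.18 and did not pass. RP11-47A8.5 (TRIM8-DT) was at 17.5, 18.9 and 17.7 CPM in Ctrl_NC, between 9.03 and 12.2 CPM in CRLM1_NC and at 6.89, 6.50 and 7.06 CPM in Antisense_NC, a fall by 1.45 ± 0.11 and, in CRLM1_NC, by 0.76 ± 0.11. All of its annotated exon bases overlap TRIM8 on the other strand, so that its reads cannot be told apart from those of TRIM8 without strand. The remaining called falls ran from -1.28 (LINC01315) to -1.02 (LINC01011). The 1 called rise was RP11-384K6.6, at 7.49, 5.36 and 5.97 CPM in Ctrl_NC and at 14.9, 16.6 and 14.1 CPM in Antisense_NC. It rose by 1.24 ± 0.13 (adjusted p = 9.5e-11), and by 0.48 ± 0.15 in CRLM1_NC. Gencode version 44 keeps its identifier for a pseudogene of 138 bases, but its mean of 6.28 CPM in Ctrl_NC stood beside only 0.997 FPKM. The same held for TPTEP1, with an entry of 213 bases and 13.1 CPM beside 0.86 FPKM. The gene models counted were therefore longer than these entries. TPTEP1, CMB9-22P13.1, AC004791.2, RP11-134G8.5 and LINC01057 are likewise typed as pseudogenes in Gencode version 44. LINC00998, FAM83H-AS1, AC093323.3 and C10orf95 are typed as protein-coding.

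**Figure D2:**
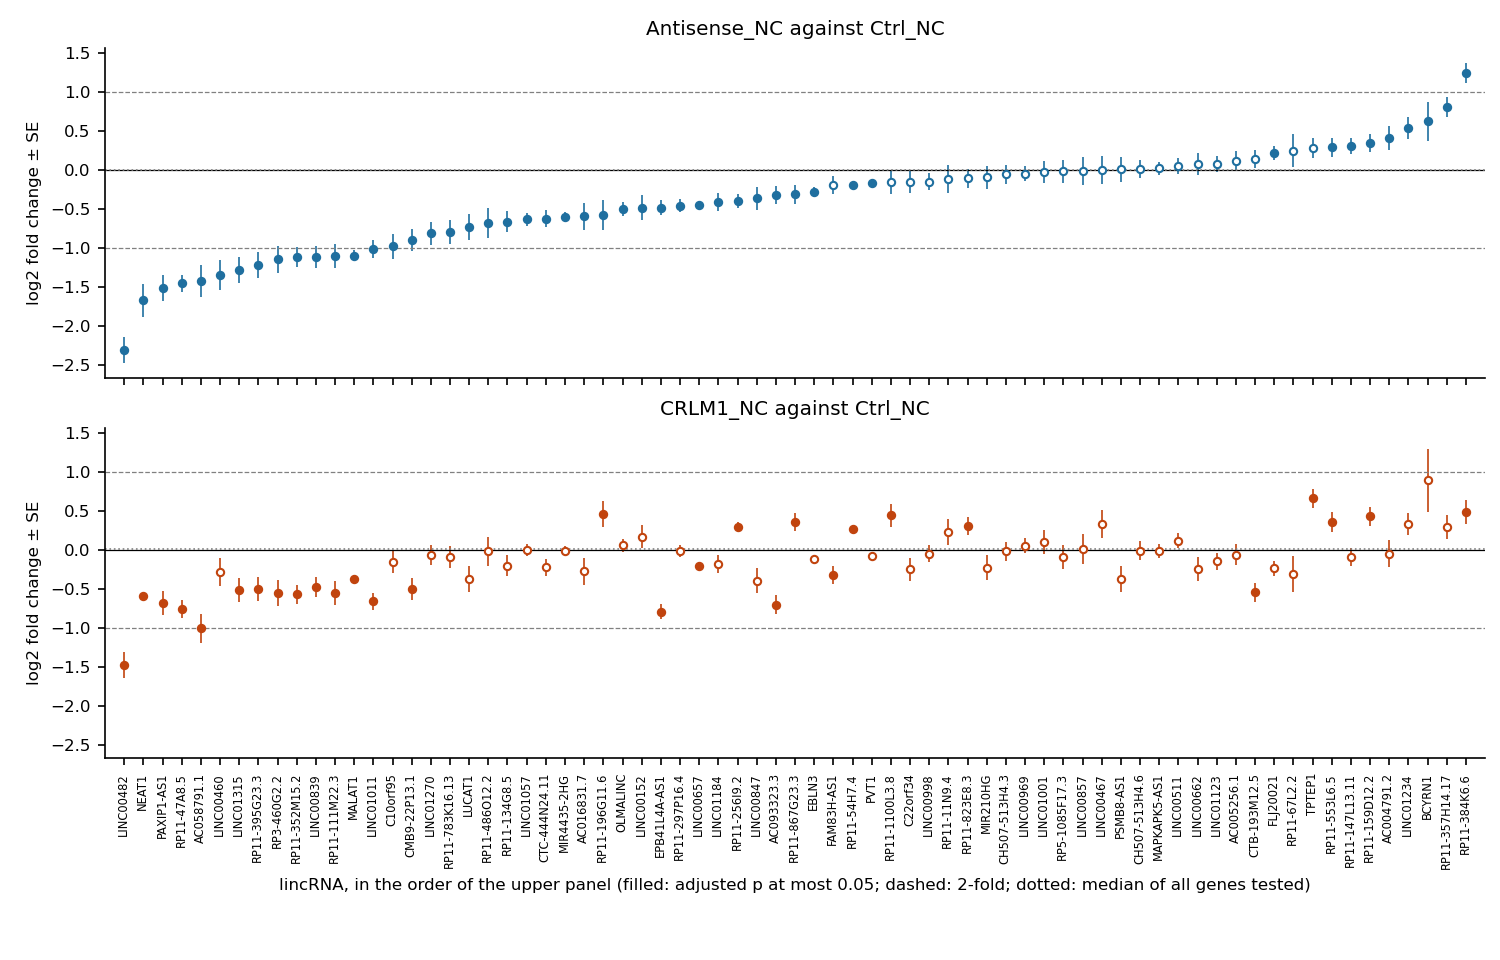
Log2 fold change ± SE (vertical axes) of 71 of the 72 lincRNAs in Antisense_NC (upper panel) and CRLM1_NC (lower panel), each against the same Ctrl_NC libraries, in the order of the upper panel. Filled points have an adjusted p of at most 0.05, dashed lines mark 2-fold and the dotted line is the median of all genes tested. In the upper panel 51 of 71 points lie below 0, and the lowest is LINC00482 at -2.31.

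In CRLM1_NC against Ctrl_NC 2 of 72 lincRNAs were called (LINC00482 and AC058791.1), where 1.58% of 14459 genes were called. Both are among the 18 lincRNAs that did not reach the share of the count threshold in every group, and 0 of the other 54 were called. With any fold 20 of the 72 fell (27.8%, against 17.4% of all genes), 10 rose (13.9%, against 16.9%) and 42 did not pass, and the medians were -0.11 and 0.01. With all 18 libraries in 1 fit, 3 of the 72 passed in place of 30. EPB41L4A-AS1, a host of a small nucleolar RNA, was lower in CRLM1_NC than in either other NC group. It was at 26.4, 21.7 and 21.7 CPM in Ctrl_NC, at 13.3, 12.8 and 14.5 CPM in CRLM1_NC and at 17.3, 17.1 and 17.0 CPM in Antisense_NC, and it fell by 0.79 ± 0.10 in CRLM1_NC. It shares 2200 exon bases with EPB41L4A on the other strand, and without strand such reads cannot be told apart. TPTEP1, RP11-867G23.3, RP11-256I9.2 and RP11-54H7.4 were among the 10 that rose. RP11-54H7.4 was at 448, 417 and 463 CPM in Ctrl_NC, at 569, 541 and 508 CPM in CRLM1_NC and at 407, 419 and 375 CPM in Antisense_NC. CRLM1_NC lay above both other groups in every library, by 0.27 ± 0.04 over Ctrl_NC and by 0.47 ± 0.04 over Antisense_NC.

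Set directly against each other, CRLM1_NC lay above Antisense_NC for most lincRNAs. The comparison called 3 of 72, all higher, where 7.18% of 14364 genes were called. With any fold 35 of the 72 were higher (48.6%, against 26.9% of all genes), 10 were lower (13.9%, against 29.5%) and 27 did not pass. The medians were 0.34 and 0.00, and in FPKM limma counted 22 higher and 13 lower. With all 18 libraries in 1 fit, 13 passed in place of 45. The 3 called were NEAT1 (1.09 ± 0.21, adjusted p = 0.011), LINC00460 (1.07 ± 0.20) and RP11-196G11.6 (1.05 ± 0.17). LINC00460 (153 counts) and RP11-196G11.6 (245 counts) did not reach their share of the count threshold in Antisense_NC. A lower level there was favoured by how they were chosen. RP11-196G11.6 was at 7.05, 8.08 and 7.24 CPM in CRLM1_NC, at 3.70, 3.08 and 4.40 CPM in Antisense_NC and at 6.50, 5.60 and 4.01 CPM in Ctrl_NC, and its exons overlap ZNF668 on the other strand. MIR4435-2HG was at 65.0, 64.4 and 70.4 CPM in CRLM1_NC, at 44.6, 44.4 and 46.7 CPM in Antisense_NC and at 60.7, 67.0 and 70.7 CPM in Ctrl_NC. Its paralog LINC00152, with the same miR-4435, was at 7.46, 7.62 and 6.68 CPM, at 5.38, 4.35 and 4.40 CPM and at 5.62, 6.80 and 6.64 CPM in the same groups. Both were lower in Antisense_NC than in Ctrl_NC, by -0.60 ± 0.06 and -0.48 ± 0.16, and in CRLM1_NC neither differed past the threshold from Ctrl_NC (-0.01 ± 0.06 and 0.17 ± 0.15). MIR210HG, the host of the hypoxia-induced miR-210, was at -0.10 ± 0.14 in Antisense_NC and -0.23 ± 0.16 in CRLM1_NC and passed in neither.

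By group means 30 of the 72 lincRNAs (41.7%) stood in the order Ctrl_NC, CRLM1_NC, Antisense_NC from high to low, which 27.2% of 14202 genes showed. In 16 of them (22.2%, against 9.24% of all genes) no library of 1 group overlapped the next group. Among those 16 were NEAT1, MALAT1, LINC00657, LINC00482, PAXIP1-AS1, RP11-47A8.5, RP11-111M22.3, RP11-352M15.2, LINC00839, LINC01011, LINC01315, RP11-395G23.3, RP11-134G8.5, CMB9-22P13.1 and AC016831.7. Of these, LINC00482, PAXIP1-AS1, RP11-111M22.3, LINC01315, RP11-395G23.3 and AC016831.7 reached their share of the count threshold in Ctrl_NC but not in Antisense_NC. For them this order was favoured by how the lincRNAs were chosen. The opposite order was shown by 5 lincRNAs (6.94%, against 32.9% of all genes), and without overlap by RP11-384K6.6 alone (1.39%, against 13.0%). The groups of these 2 comparisons share Ctrl_NC, and the counts are given as a description.

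A list of 20 growth- and cancer-linked lincRNAs, 18 of them in the tables, held 7 of the lincRNAs described here. Of these 7, 6 passed as lower in Antisense_NC and none as higher, where 55.6% of the 72 lincRNAs and 32.2% of all genes passed as lower. They were LINC00460, LUCAT1 (-0.73 ± 0.17), EPB41L4A-AS1 (-0.48 ± 0.09), LINC00152, LINC00657 and PVT1 (-0.17 ± 0.05), and LINC00511 was at 0.05 ± 0.10. In FPKM PVT1 was at 21.3 ± 1.14 in Antisense_NC and at 20.3 ± 0.628 in Ctrl_NC (SD, n = 3), so that its direction depends on the scaling. MYC, the neighbour of PVT1, fell by 1.05 ± 0.03. In CRLM1_NC 2 of the 7 passed as lower (LINC00657 and EPB41L4A-AS1) and none as higher. NEAT1 was the only lincRNA here on a list of p53-linked lincRNAs, and no lincRNA here was on a list of small structural RNAs. Of the lincRNAs left out by name, SNHG8, SNHG15 and SNHG19, hosts of small nucleolar RNAs, passed as lower in both CRLM1_NC and Antisense_NC (SNHG8 by -0.65 ± 0.06 and -0.56 ± 0.06).

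LincRNAs that start head to head with a protein-coding gene were looked at as a class after their values had been seen, so that they are described without a test. In Gencode version 44, 13 lincRNAs start within 2000 bases of a protein-coding start on the opposite strand, and both genes were tested in Antisense_NC against Ctrl_NC for 12 pairs. The rule did not ask that the genes of a pair be separate. MAPKAPK5-AS1, FLJ20021, ENSG00000274021.1, RP11-47A8.5, RP11-867G23.3, PSMB8-AS1 and RP11-486O12.2 share exon bases with their partner, and without strand such reads cannot be told apart. The lincRNA lay below its partner in 11 of the 12 pairs by the bare values, and RP11-867G23.3 (-0.31) and CNIH2 (-0.30 ± 0.33) were not told apart. Of the lincRNAs 8 passed as lower and 1 as higher, and of the partners 2 passed as lower and 6 as higher. Of all genes 32.2% passed as lower and 34.4% as higher. The median difference was -0.55 for these lincRNAs, 0.11 for their partners and -0.29 for the other 59 lincRNAs, of which 32 passed as lower.

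PAXIP1-AS1, the CG-rich promoter of which is printed above, was the widest pair. It was at 10.9, 7.64 and 8.38 CPM in Ctrl_NC, at 5.44, 6.49 and 4.89 CPM in CRLM1_NC and at 3.10, 3.00 and 3.58 CPM in Antisense_NC. PAXIP1, a component of the response to DNA damage 297 bases away, was at 7.60, 6.92 and 5.93 CPM, at 11.1, 10.5 and 7.95 CPM and at 16.9, 21.6 and 15.7 CPM in the same groups. The lincRNA was high where PAXIP1 was low, with no overlap between any of the groups for either gene. PAXIP1-AS1 fell by 1.52 ± 0.17 in Antisense_NC (adjusted p = 4.1e-10) while PAXIP1 rose by 1.37 ± 0.13 (adjusted p = 6.8e-12). RP11-111M22.3, whose window shares bases with that of C11orf30, was at 8.70, 8.76 and 7.53 CPM in Ctrl_NC and at 3.88, 3.84 and 4.35 CPM in Antisense_NC, a fall by 1.10 ± 0.15. C11orf30, which encodes the chromatin protein EMSY, was at 11, 12.1 and 13.3 CPM and at 25.8, 28.3 and 25.7 CPM, a rise by 1.08 ± 0.10. PAXIP1-AS1 (577 counts in Ctrl_NC, 213 in Antisense_NC) and RP11-111M22.3 (546 and 266) reached their share of the count threshold only in the former of these groups. A lower level of both lincRNAs in Antisense_NC was favoured by how they were chosen. RP11-352M15.2 fell by 1.11 ± 0.12 and ARID2, a subunit of a SWI/SNF complex that starts 1846 bases away, rose by 0.78 ± 0.09. TRIM8, beside RP11-47A8.5, fell by 0.25 ± 0.03. In CRLM1_NC against Ctrl_NC, 5 lincRNAs of 12 pairs passed as lower, and in 4 of those pairs the partner passed as higher. Of all genes 17.4% passed as lower and 16.9% as higher in that comparison.

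**Figure D3:**
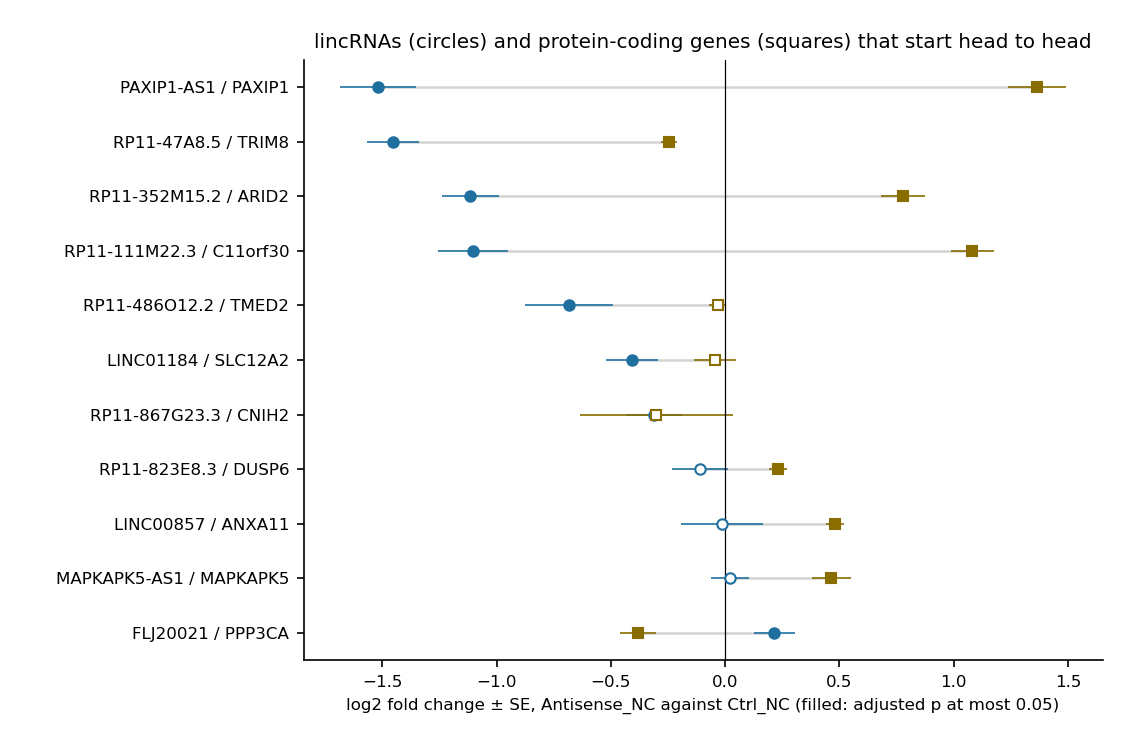
Log2 fold change ± SE of Antisense_NC against Ctrl_NC (horizontal axis) for 11 of the 12 lincRNAs (circles) and the protein-coding genes that start head to head with them (squares), 1 pair per line. Filled symbols have an adjusted p of at most 0.05. The circle lies left of the square in 10 of the 11 pairs drawn, most widely for PAXIP1-AS1 at -1.52 and PAXIP1 at 1.37. The lincRNA beside DUSP6, drawn under its clone name, is ENSG00000274021.1. Pairs that share exon bases are drawn with the others.

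By distance to the nearest protein-coding gene, 21 of the 72 lincRNAs overlapped it, 10 lay under 5000 bases away, 20 under 50000 bases and 19 farther, and 2 had no position in Gencode version 44. In Antisense_NC the nearest gene had the same sign as the lincRNA in 10 of 19 overlapping pairs that were tested, in 4 of 9 pairs under 5000 bases, in 4 of 15 under 50000 bases and in 7 of 13 farther ones. The share among other pairs of neighbouring genes was not computed, so that these counts are a description only. Near NEAT1, FRMD8 rose by 0.65 ± 0.10, against the direction of the lincRNA.

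Genes of nuclear RNA decay, which removes short-lived noncoding transcripts, were also measured. Of 13 tested in Antisense_NC, 8 passed as higher, 2 as lower and 3 did not pass, with a median of 0.39, where 34.4% of all genes passed as higher and 32.2% as lower. ZCCHC8, the scaffold of the nuclear exosome targeting complex, rose by 1.36 ± 0.12. Its helicase SKIV2L2 (MTREX) rose by 0.85 ± 0.08, the nuclease DIS3 by 0.82 ± 0.05 and ZCCHC7 by 0.92 ± 0.09. PABPN1, the nuclear poly(A)-binding protein, fell by 1.61 ± 0.06 and the nuclease EXOSC10 by 0.45 ± 0.08. Of 15 paraspeckle and speckle proteins 4 passed as higher and 6 as lower, near the shares of all genes. The speckle protein SON rose by 1.11 ± 0.05 and NONO, a core paraspeckle protein, by 0.42 ± 0.03, while SRSF1 fell by 1.01 ± 0.05 and TARDBP by 0.60 ± 0.06. In CRLM1_NC 6 decay genes passed as higher and 1 as lower, and 3 and 5 of the paraspeckle and speckle proteins, where 16.9% and 17.4% of all genes did. The part of these genes in the lincRNA levels was not tested.

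With the hnRNPK construct, no lincRNA was called in the Ctrl or in the CRLM1 background when all libraries were used, and 0% of all genes were called in either. edgeR's unadjusted p was under 0.05 for 6 lincRNAs and 2246 of 14607 genes in the Ctrl background and for 7 lincRNAs and 1332 of 14394 genes in the CRLM1 background, and DESeq2 and limma on FPKM also called 0 lincRNAs. In both groups replicate 3 differed from replicates 1 and 2. In Ctrl_hnRNPK replicates 1 and 2 both lay outside the range of Ctrl_NC on the same side for 48 lincRNAs, and replicate 3 lay on that side for 10 of them, inside the range for 14 and beyond it on the opposite side for 24. In CRLM1_hnRNPK the counts were 46, and 9, 7 and 30. In Antisense_hnRNPK they were 49, and 41, 6 and 2. These counts were made for the lincRNAs only, and the shares over all genes were not computed, so that they describe the libraries and not a trait of lincRNAs. In the study's own analysis replicate 3 of Ctrl_hnRNPK and of CRLM1_hnRNPK was excluded because of its profile, and values are given with and without it.

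**Figure D4:**
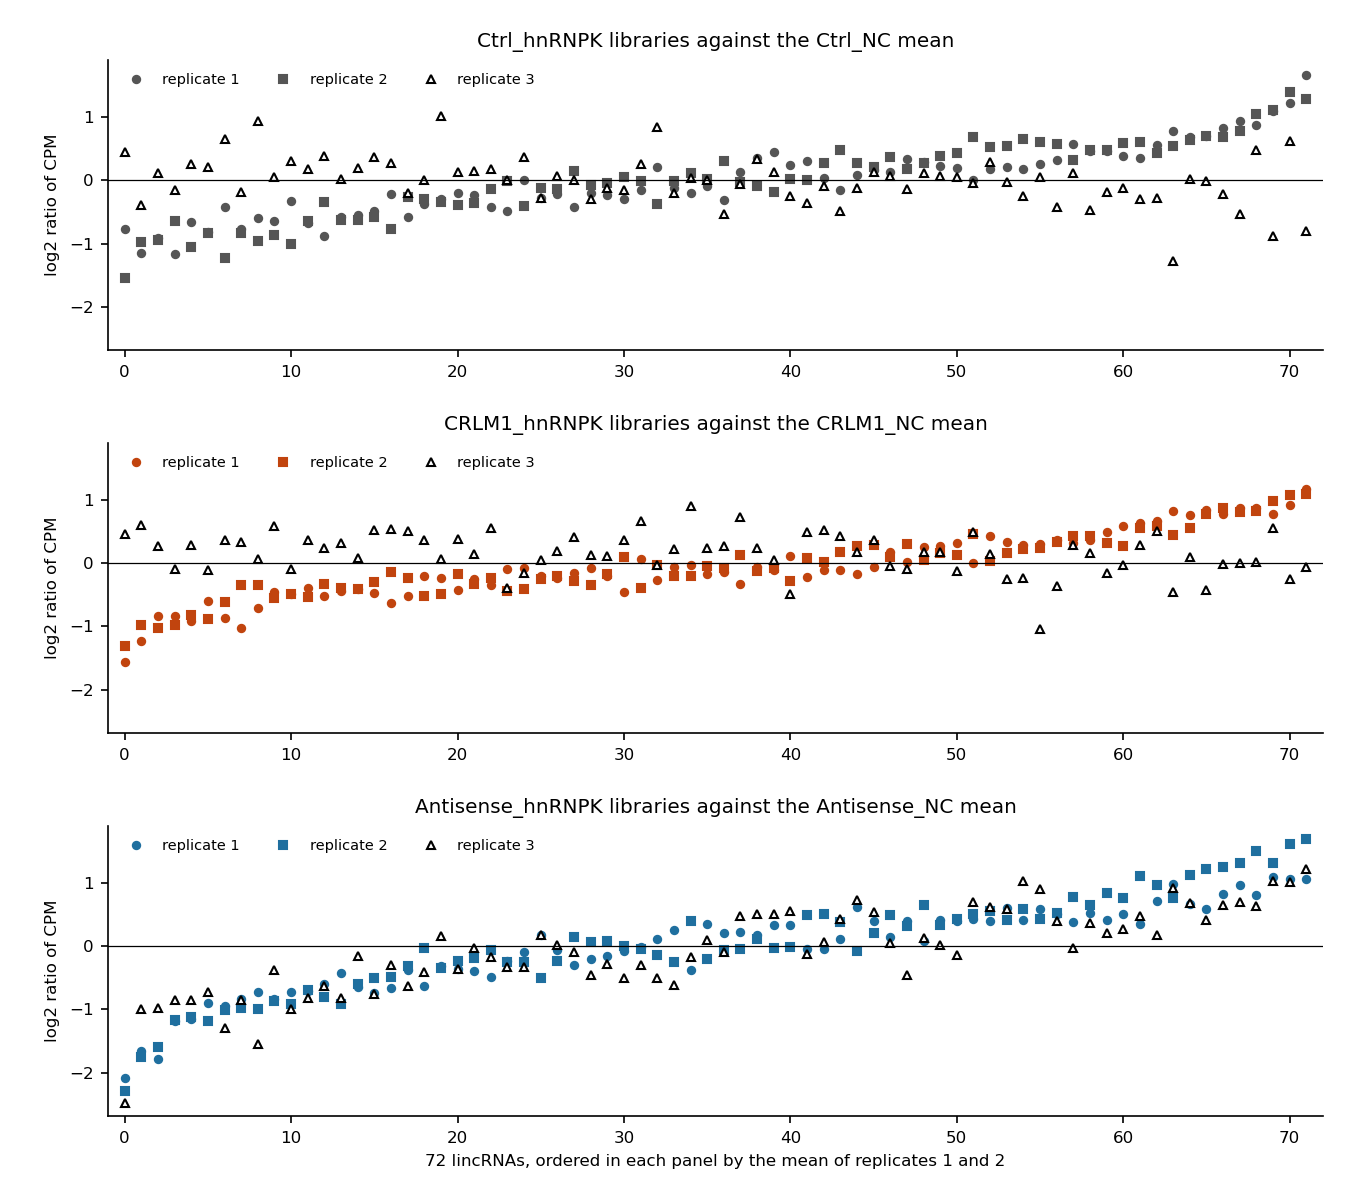
Log2 ratio of the CPM in each hnRNPK library to the mean of the NC group of its background (vertical axes) for the 72 lincRNAs, ordered in each panel by the mean of replicates 1 and 2. Circles, squares and open triangles are replicates 1, 2 and 3. In the Ctrl and CRLM1 panels the triangles do not follow the other symbols, lying beyond the NC range on the opposite side for 24 of 48 and 30 of 46 lincRNAs, and in the Antisense panel they do so for 2 of 49. Shares over all genes were not computed.

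MALAT1 and NEAT1 were highest in the first 2 Ctrl_hnRNPK libraries. MALAT1 was at 489, 377 and 88.4 CPM in Ctrl_hnRNPK replicates 1 to 3, at 272, 257 and 116 CPM in CRLM1_hnRNPK and at 146, 127 and 141 CPM in Antisense_hnRNPK. Against their NC groups, replicates 1 and 2 were above every library in all 3 backgrounds, and replicate 3 was below all of Ctrl_NC, inside CRLM1_NC and above Antisense_NC. With all libraries MALAT1 was at 1.02 ± 0.48 in the Ctrl background (adjusted p = 0.33) and at 0.88 ± 0.31 in the CRLM1 background (adjusted p = 0.53). Without replicate 3 it rose by 1.51 ± 0.09 (adjusted p = 1.5e-08) and by 1.18 ± 0.06 (adjusted p = 8.8e-16). In the Antisense background it rose by 0.88 ± 0.10 (adjusted p = 2.9e-06), which was 0.34 (adjusted p = 0.013) once a trend of each library on GC content and length was removed. NEAT1 was at 423, 428 and 108 CPM in Ctrl_hnRNPK, at 244, 237 and 135 CPM in CRLM1_hnRNPK and at 84.1, 86.2 and 58.3 CPM in Antisense_hnRNPK. Without replicate 3 it rose by 1.12 ± 0.06 in the Ctrl background and by 0.89 ± 0.05 in the CRLM1 background, against 0.67 ± 0.42 and 0.67 ± 0.25 with it. In the Antisense background it overlapped its NC group at 0.24 ± 0.21 and did not pass.

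Without replicate 3, Ctrl_hnRNPK called 5 lincRNAs, 3 higher and 2 lower, against 6.88% of 15004 genes. With any fold 20 were higher (27.8%, against 29.6%) and 19 lower (26.4%, against 29.9%). CRLM1_hnRNPK without replicate 3 called 4, 2 higher and 2 lower, against 5.30% of 14685 genes. With any fold 18 were higher (25.0%, against 29.5%) and 17 lower (23.6%, against 29.1%), so that in both backgrounds the shares were near or below those of all genes. LINC00467, an RNA on chromosome 1, was called in both, at 10.1, 11.4 and 6.65 CPM in Ctrl_hnRNPK against 3.76 to 4.63 CPM in Ctrl_NC, and at 10.3, 11.6 and 4.60 CPM in CRLM1_hnRNPK against 4.84 to 6.56 CPM in CRLM1_NC. It rose by 1.34 ± 0.17 and by 1.04 ± 0.16 without replicate 3. BCYRN1, named after a small neuronal cytoplasmic RNA with many repeat-derived copies in the genome, was at 3.07, 3.43 and 5.19 CPM in Ctrl_hnRNPK against 4.19, 5.88 and 10.3 CPM in Ctrl_NC. In CRLM1_hnRNPK it was at 4.39, 5.21 and 17.8 CPM against 10.8, 10.6 and 17.5 CPM. It fell by 1.05 ± 0.32 and by 1.38 ± 0.19 without replicate 3, and its counts depend on how reads of its copies were placed. Its entry in Gencode version 44 has 200 bases, but its mean of 6.79 CPM in Ctrl_NC stood beside only 0.357 FPKM. The gene model counted was therefore longer than this entry, and its reads need not be those of the small RNA. RP11-357H14.17 fell by 1.09 ± 0.24 in the Ctrl background and PSMB8-AS1 by 1.05 ± 0.23 in the CRLM1 background, again without replicate 3. LINC00467 reached its share of the count threshold in Ctrl_hnRNPK (647 counts, replicate 3 included) but not in Ctrl_NC (281). BCYRN1 reached its share in Ctrl_NC (454) but not in Ctrl_hnRNPK (259), and PSMB8-AS1 in CRLM1_NC (329) but not in CRLM1_hnRNPK (275). The differences in these comparisons were favoured by how the lincRNAs were chosen. LINC00657 was at 479, 405 and 351 CPM in Ctrl_hnRNPK and at 520, 494 and 285 CPM in CRLM1_hnRNPK. It rose by 0.47 ± 0.07 and by 0.89 ± 0.05 without replicate 3, against 0.33 ± 0.18 and 0.66 ± 0.24 with it.

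In the Antisense background the 3 hnRNPK libraries lay together, and 12 lincRNAs were called (16.7%, against 13.4% of 14501 genes), 5 higher and 7 lower. With any fold 22 were higher (30.6%, against 33.4%), 20 were lower (27.8%, against 30.5%) and 30 did not pass, so that the shares were again close to those of all genes, and the medians were 0.05 and 0.04. Of the 12 called, 3 (2 higher and 1 lower) are among the 18 that did not reach the share of the threshold in every group. In FPKM the median of all genes was shifted by 0.26 on the log2(FPKM + 0.1) scale and limma counted 30 higher and 13 lower.

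The largest change was that of RP11-1100L3.8 (NR4A1AS, ENSG00000259884.1, chr12:52058459-52059503, minus strand). It reached its share of the count threshold in Antisense_NC (500 counts) but not in Antisense_hnRNPK (130). A lower level in Antisense_hnRNPK was favoured by how it was chosen. It was at 8.49, 5.95 and 8.29 CPM in Antisense_NC and at 1.78, 1.56 and 1.36 CPM in Antisense_hnRNPK, with no overlap, and it fell by 2.27 ± 0.21 (adjusted p = 5.9e-07). NR4A1, a nuclear receptor gene on the other strand with which it shares 754 exon bases, was at 135, 134 and 131 CPM and at 40.8, 24.5 and 46.8 CPM in the same groups and fell by 1.85 ± 0.18. Reads of the 2 genes cannot be told apart without strand. RP11-54H7.4, the lincRNA of highest mean FPKM over all 18 libraries, was at 407, 419 and 375 CPM in Antisense_NC and at 126, 119 and 201 CPM in Antisense_hnRNPK, a fall by 1.44 ± 0.16 (adjusted p = 2.2e-05). It overlaps no annotated exon, and its nearest protein-coding gene is 61629 bases away. TPTEP1 was at 17.0, 17.9 and 14.6 CPM and at 4.81, 5.44 and 8.38 CPM, a fall by 1.42 ± 0.17. RP11-256I9.2 and RP11-867G23.3 both fell by 1.07, with SE of 0.14 and 0.16. PVT1 was at 112, 106 and 119 CPM in Antisense_NC and at 60.0, 49.2 and 68.2 CPM in Antisense_hnRNPK and fell by 0.93 ± 0.10, beside a fall of MYC by 0.82 ± 0.11.

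Those called higher in Antisense_hnRNPK were RP11-159D12.2, RP11-67L2.2, LINC00662, LINC00467 and LUCAT1. RP11-159D12.2 was at 12.6, 13.2 and 11.7 CPM in Antisense_NC and at 26.1, 40.2 and 28.8 CPM in Antisense_hnRNPK, a rise by 1.34 ± 0.15 (adjusted p = 4.5e-06). LINC00662 was at 7.54, 6.46 and 8.14 CPM and at 15.8, 18.2 and 15.0 CPM, a rise by 1.15 ± 0.14. RP11-67L2.2 rose by 1.25 ± 0.20, LINC00467 by 1.04 ± 0.23 and LUCAT1, a stress-induced RNA, by 1.02 ± 0.19. In these 5 no hnRNPK library overlapped Antisense_NC. RP11-67L2.2 (772 counts in Antisense_hnRNPK, 257 in Antisense_NC) and LINC00467 (778 and 296) reached their share of the count threshold only in the former of these groups. A higher level of both in Antisense_hnRNPK was favoured by how they were chosen. With the trend on GC content and length removed the 5 differences were 0.77, 0.83, 0.65, 0.53 and 0.35 in the order of the first sentence, and LINC00467 (adjusted p = 0.084) and LUCAT1 (adjusted p = 0.17) no longer passed. LINC00657 was at 323, 359 and 377 CPM, above every Antisense_NC library, and rose by 0.52 ± 0.08 (adjusted p = 6.0e-05), which turned to -0.047 with the trend removed. MIR4435-2HG was lower by -0.23 ± 0.09 (adjusted p = 0.037), and LINC00152 (0.37 ± 0.16) and MIR210HG (0.42 ± 0.19) did not pass.

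GC content moved with the hnRNPK differences. In the Antisense background the lincRNAs that passed as higher had a median GC content of 43.5% (21 with a transcript) and those that passed as lower 52.0% (20), where the median over 70 lincRNAs was 49.2%. Without replicate 3 the values were 41.9% and 52.1% in the Ctrl background and 41.8% and 52.7% in the CRLM1 background. As a description across genes, which are not independent, Spearman's rho of the difference with GC content was -0.36 over the 70 lincRNAs and -0.73 over 14337 genes in the Antisense background. In the Antisense_NC against Ctrl_NC comparison rho was 0.00 over the lincRNAs and -0.31 over all genes. CCTCCC, a C-rich motif of the kind hnRNPK binds, searched on the transcribed strand, had a median of 0.572 per 1000 bases in the lincRNAs and 0.523 in all tested transcripts. It was 0.685 in those that passed as higher in Antisense_hnRNPK and 0.598 in those that passed as lower. Whether GC content had a part in the differences in other ways was not tested.

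**Figure D5:**
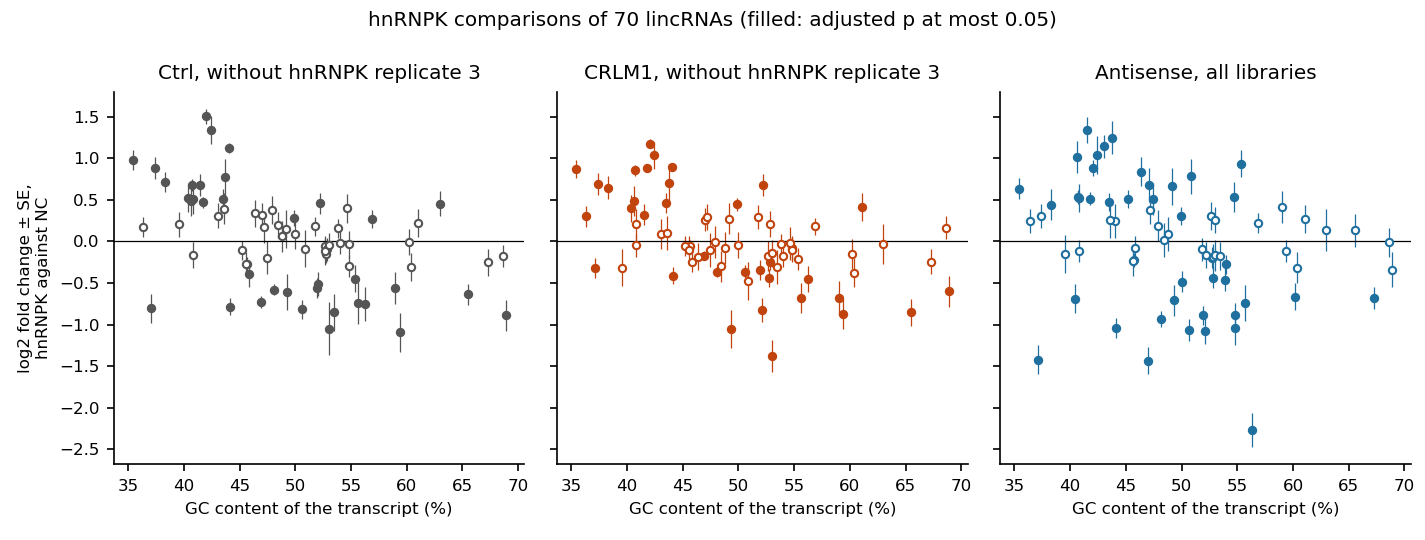
Log2 fold change ± SE of hnRNPK against NC (vertical axis) for 70 lincRNAs by the GC content of their Gencode version 44 transcript in percent (horizontal axes), in the Ctrl and CRLM1 backgrounds without hnRNPK replicate 3 and in the Antisense background with all libraries. Filled points have an adjusted p of at most 0.05. Filled points above 0 gather at lower GC content (median 41.9%, 41.8% and 43.5%) than those below 0 (52.1%, 52.7% and 52.0%).

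In Antisense_hnRNPK 12 of 13 genes of nuclear RNA decay passed as higher and none as lower, with a median of 0.69, where 33.4% of all genes passed as higher and 30.5% as lower. SKIV2L2 rose by 1.02 ± 0.08 and XRN2 by 0.84 ± 0.08, and PABPN1 was at 0.13 ± 0.17. Without replicate 3, 10 of 13 passed as higher in the Ctrl background and 11 in the CRLM1 background, where 29.6% and 29.5% of all genes did. Of the 15 paraspeckle and speckle proteins 8 passed as higher and 6 as lower in Antisense_hnRNPK, with SRRM2 at -1.37 ± 0.12.

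Whether the response to hnRNPK differed between backgrounds was tested with an interaction term, all libraries included. Between the CRLM1 and Ctrl backgrounds 0 lincRNAs and 0% of all genes were called, with 0 lincRNAs and 221 of 15188 genes at an unadjusted p under 0.05 in edgeR and 0 called by DESeq2. Between the Antisense and Ctrl backgrounds 0 lincRNAs and 0% of genes were called by edgeR, with 20 lincRNAs and 2179 of 15346 genes at an unadjusted p under 0.05, and DESeq2 called 3. Between the CRLM1 and Antisense backgrounds 3 lincRNAs were called, against 0.926% of 15233 genes. The hnRNPK difference of RP11-1100L3.8 was higher in the CRLM1 than in the Antisense background by 2.27 ± 0.40 (adjusted p = 0.027), with 8.19, 7.67 and 16.9 CPM in CRLM1_hnRNPK against 10.1, 13.6 and 9.84 CPM in CRLM1_NC. That of RP11-54H7.4 was higher by 1.49 ± 0.29 (adjusted p = 0.029), with 483, 444 and 718 CPM in CRLM1_hnRNPK. The third, ENSG00000274021.1, carries only a clone name in the deposited tables and is given here by its identifier (chr12:89351015-89353271, plus strand). It shares 1105 exon bases with DUSP6, a phosphatase gene that limits ERK signalling, on the other strand. It was at 12.6, 9.98 and 10.3 CPM in CRLM1_hnRNPK against 14.7, 13.7 and 12.2 CPM in CRLM1_NC, and at 18.5, 24.8 and 16.3 CPM in Antisense_hnRNPK against 9.61, 9.41 and 12.2 CPM in Antisense_NC, a difference of -1.19 ± 0.27 (adjusted p = 0.045). DUSP6 rose by 0.61 ± 0.08 in Antisense_hnRNPK.

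These 3 calls were all lost when any 1 of the 3 CRLM1_NC or 3 Antisense_NC libraries, or Antisense_hnRNPK replicate 1 or 2, was left out, while the differences kept their sign. With replicate 3 of Ctrl_hnRNPK and of CRLM1_hnRNPK left out, 11 lincRNAs were called between the CRLM1 and Antisense backgrounds (4 higher and 7 lower, against 2.50% of 15568 genes). RP11-1100L3.8 was then at 1.84 ± 0.27, RP11-54H7.4 at 1.28 ± 0.23 and ENSG00000274021.1 at -1.13 ± 0.23. The other 8, named after their values were seen because the call depends on the libraries used, were TPTEP1, RP5-1085F17.3, RP11-159D12.2, LINC01234, LINC00662, MIR210HG, BCYRN1 and LINC00857. LINC00857 reached its share of the count threshold only in Antisense_hnRNPK (613 counts), and RP11-1100L3.8 missed it in that group (130 counts). The differences of both were favoured by how the lincRNAs were chosen. On the same libraries 4 were called between the Antisense and Ctrl backgrounds (against 1.00% of 15743 genes), RP11-1100L3.8 (-1.54 ± 0.30), RP5-1085F17.3 (-1.22 ± 0.25), CH507-513H4.3 (-1.03 ± 0.27) and ENSG00000274021.1 (1.36 ± 0.25). Between the CRLM1 and Ctrl backgrounds 0 were called (0.0258% of 15485 genes), with 12 lincRNAs and 2395 genes at an unadjusted p under 0.05.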

How the data were processed

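RNA of 18 HCT116 libraries (6 groups of 3) was measured by sequencing. Per the labels and the study's methods, total RNA was extracted with TRIZOL, libraries were made with the KAPA RNA HyperPrep kit and read as 151 nt paired ends, and reads were aligned with TopHat2 to GRCh38 with Gencode version 23 gene models, allowing up to 4 mismatches. TopHat2, bcl2fastq and edgeR are named in the submitters' processing notes. The deposited counts are whole numbers of uniquely mapped reads per gene, as the authors made them, without normalization. The deposited FPKM were divided by exon length and mapped fragments by the authors. Poly(A) selection and strandedness are not given in the sources used here.

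The lincRNAs and the gene lists were chosen with earlier results of these data known. Counts were tested in R 4.3.3 with edgeR 4.0.16 (TMM, filterByExpr, robust quasi-likelihood F-test, two-sided, Benjamini-Hochberg over all genes tested), each of 6 comparisons on its own libraries and 3 interaction terms on 4 groups each. Adjusted p-values in the text come from this test unless DESeq2 (1.42.0) or limma (3.58.1) is named. A simulation with known changes was run through the same steps before use. The tests treat libraries as replicates and leave out no library unless stated. Named were lincRNAs on 5 role lists, the 10 of highest mean FPKM, up to 5 called in each direction per comparison without overlap between groups (3 for interactions; where none was called, in the fit without hnRNPK replicate 3), those beside the count threshold, and nearest protein-coding genes. Genes of the head-to-head class and the order of NC groups were named after their values were seen. Positions came from Gencode version 44, where 70 of 72 identifiers matched, and promoters and microRNAs from RefSeq tables of GRCh38.p14. With raw counts of 19732681 to 27039520 per library, the limit of 3 counts that a count of 0 allows was 0.0972 to 0.165 TMM-scaled CPM per library, and it covers counting error only. Alternatives were RLE size factors, no filter on low counts, DESeq2, limma-trend on log2(FPKM + 0.1) and log2(FPKM + 1), all 18 libraries in 1 fit, a replicate block, removal of a trend on GC content and length, the study's exclusion of hnRNPK replicate 3 in the Ctrl and CRLM1 backgrounds, and leaving out each replicate. Removing the trend and these libraries together was added after the data were seen. Values of a few genes are not reported here, and counts over lists and over all lincRNAs include them.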

Additional observations from a re-analysis of the deposited data

Results flagged for a closer look

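The response of 3 lincRNAs to the hnRNPK construct differed between the CRLM1 and Antisense backgrounds by the interaction term of edgeR's quasi-likelihood test over all libraries. The log2 difference of the hnRNPK fold change, CRLM1 minus Antisense, was 2.27 for RP11-1100L3.8 (SE 0.40, adjusted p = 0.027), 1.49 for RP11-54H7.4 (SE 0.29, adjusted p = 0.029) and -1.19 for ENSG00000274021.1 (SE 0.27, adjusted p = 0.045). With all 18 libraries in 1 fit RP11-1100L3.8 (adjusted p = 0.055) and ENSG00000274021.1 (adjusted p = 0.057) did not pass, and without replicate 3 of Ctrl_hnRNPK and of CRLM1_hnRNPK all 3 did (adjusted p = 1.5e-04, 0.0030 and 0.0020). RP11-1100L3.8 and ENSG00000274021.1 share exon bases with NR4A1 and DUSP6, so that their reads cannot be told apart from those genes without strand. RP11-1100L3.8 did not reach its share of the count threshold in Antisense_hnRNPK (130 counts), so that its difference was favoured by how it was chosen.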

How the results depend on the processing

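Of 42 values of named lincRNAs under 615 alternatives, 554 kept direction and side of the threshold, 39 no longer passed, 20 newly passed and 2 changed sign. The 2 were LINC00657 in Antisense_hnRNPK (-0.047 with the GC and length trend removed) and PSMB8-AS1 in CRLM1_hnRNPK (from -1.05 without replicate 3 to 0.030 without replicate 1). The replicate numbers did not pair libraries (correlations of same-numbered deviations -0.07 to 0.03 over 15563 genes), and with a replicate block 41 of the 42 kept their side and ENSG00000274021.1 between the CRLM1 and Antisense backgrounds was at -1.18 (adjusted p = 0.062).

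Counts of called lincRNAs moved by over 1.5 times as follows. In CRLM1_NC against Ctrl_NC (2 called) all 18 libraries in 1 fit gave 1, no filter 1, log2(FPKM + 0.1) 1 and log2(FPKM + 1) 0. In CRLM1_NC against Antisense_NC (3) both FPKM scales gave 0, and in Antisense_NC against Ctrl_NC (16) they gave 9 and 3. In Antisense_hnRNPK (12) log2(FPKM + 1) gave 4. In Ctrl_hnRNPK (0) no filter gave 2, and the trend and replicate 3 removed together gave 3, as against 2 in CRLM1_hnRNPK (0). In the interaction of Antisense and Ctrl (0) DESeq2 gave 3, the trend removed 4, no filter 7, the study's exclusion 4 and the last with the trend removed 5. In that of CRLM1 and Antisense (3) these gave 8, 11, 8, 11 and 7, and all 18 libraries in 1 fit gave 1. Counts that passed the adjusted p with any fold moved with all 18 libraries in 1 fit to 3 from 30, 13 from 45 and 29 from 49 in the 3 NC comparisons in the order of this paragraph. In Ctrl_hnRNPK they went from 0 to 3 without the filter and to 31 with trend and replicate 3 removed, in CRLM1_hnRNPK to 3 with the trend removed and to 27 with both. In the interactions they went from 0 to 2 (both removed) and 3 (the study's exclusion) between CRLM1 and Ctrl, from 0 to 4 (DESeq2), 4 (trend), 7 (no filter), 9 (exclusion) and 10 (both) between Antisense and Ctrl, and from 3 to 13, 18, 12, 22 and 23 between CRLM1 and Antisense, with 1 for all 18 libraries in 1 fit.

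Leaving out 1 library at a time gave 15 to 18 called in Antisense_NC against Ctrl_NC (43 to 46 with any fold), 1 to 3 in CRLM1_NC against Ctrl_NC (25 to 29), 1 to 4 in CRLM1_NC against Antisense_NC (39 to 43), 9 to 13 in Antisense_hnRNPK (34 to 43), 0 to 5 in Ctrl_hnRNPK (0 to 39), 0 to 4 in CRLM1_hnRNPK (0 to 35), 0 to 4 for the interaction of Antisense and Ctrl (0 to 9), 0 to 11 for that of CRLM1 and Antisense (0 to 22), and 0 to 0 for that of CRLM1 and Ctrl (0 to 0). The upper ends of the hnRNPK comparisons in the Ctrl and CRLM1 backgrounds are those without replicate 3. Fewer libraries, fewer genes and a shared spread are part of these alternatives by construction, and other causes were not tested.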
